A study of Mus musculus with 2 samples.

Results

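The 47 genes described here are imprinted genes of the mouse, 40 protein-coding and 7 noncoding, out of 55450 annotated genes. They were chosen by name, and every m6A site listed inside the annotated interval of a gene on its own strand was counted as a site of that gene. The gene intervals were those of GENCODE M21 on GRCm38, the assembly that mm10 names. Of the 47 genes, 41 held at least 1 site, and together they held 1187 of the 219409 different positions listed over both libraries.

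An imprinted gene is expressed mainly from the allele inherited from one parent, because the other allele is silenced by marks laid down in the germ line. Most imprinted genes lie in clusters under a shared control region, and many clusters combine coding genes with a long noncoding RNA that is expressed from the opposite parental allele. Several of these genes act in fetal growth, in the brain and in the placenta, and many are strongly expressed in neurons. N6-methyladenosine (m6A) is a methyl mark placed on adenosines of nascent RNA, mostly in the DRACH motif (D stands for A, G or T, R for a purine and H for any base but G). It is known to be frequent in long last exons and near stop codons, and to bind reader proteins that act on splicing, export, translation and decay.

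GLORI was applied to poly(A)+ RNA from 2 brain regions of 1 female P0 mouse of the F1r cross, with 1 library for the cerebellum and 1 for the cerebrum. F1r is the reciprocal cross of a C57BL/6J mother (C57) and a PWK/PhJ father (PWK), so that in both libraries the maternal allele of every gene was of C57 and the paternal allele of PWK. GLORI converts unmethylated adenosines with glyoxal and nitrite, so that they are read as G, whereas m6A stays A. The question put here was where m6A was listed on imprinted RNAs, and how their coding and noncoding members compared. Each list combines the reads of both alleles, and the lists give neither methylation rates nor reads, so that an allele, a level and the depth behind a site were not known. A site that is absent from a list can be unmethylated, unexpressed or thinly covered. As the RNA came from whole tissue, fewer cells of a type and less RNA per cell cannot be told apart. With no replicate library, no test was made, and the intervals below (95% Wilson) cover counting error over sites only, which lie close together and are not independent.

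The tissue labels were set against genes known from the hindbrain and the forebrain. Of 10 hindbrain genes, 7 had an exonic site in the cerebellum and 5 did in the cerebrum, with 72 and 75 sites. En1 and En2 had 6 and 9 in the cerebellum and none in the cerebrum, whereas Neurod1 had 0 and 23, and Atoh1 and Hoxa2 were at 0 in both. Of 11 forebrain genes, 4 had an exonic site in the cerebellum (34 sites) and 11 in the cerebrum (259 sites). The 6 genes of meninges and fibroblasts had 13 and 36 exonic sites, and Dcn, Lum and Ogn were at 0 in the cerebellum. Those of 5 choroid plexus genes numbered 13 and 10, with Folr1 and Kl at 0 in both and Ttr at 0 in the cerebellum, where all 13 were on Otx2. Those of 4 endothelial genes numbered 5 and 14, with Pecam1 and Cldn5 at 0 in both, and those of 5 hypothalamic genes 1 and 9, all on Nkx2-1. What these differences add to the counts of the imprinted genes was not tested.

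Imprinted genes held 597 of the 79355 sites of the cerebellum (0.752%, 0.695 to 0.815) and 986 of the 188295 sites of the cerebrum (0.524%, 0.492 to 0.557). In all, 396 sites were listed in both libraries, 201 in the cerebellum only and 590 in the cerebrum only. A site was present in the cerebellum for 32 of the 40 coding genes (80.0%, 65.2 to 89.5) and in the cerebrum for 34 (85.0%, 70.9 to 92.9). Over all 21951 coding genes these shares were 41.2% and 57.4%. Of the 7 noncoding genes, 6 had a site in the cerebellum and 5 in the cerebrum, beside 5.02% and 12.7% of all 10155 long noncoding genes. How far a higher expression of the imprinted genes set these shares was not tested, since the lists hold no expression.

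**Figure D1:**
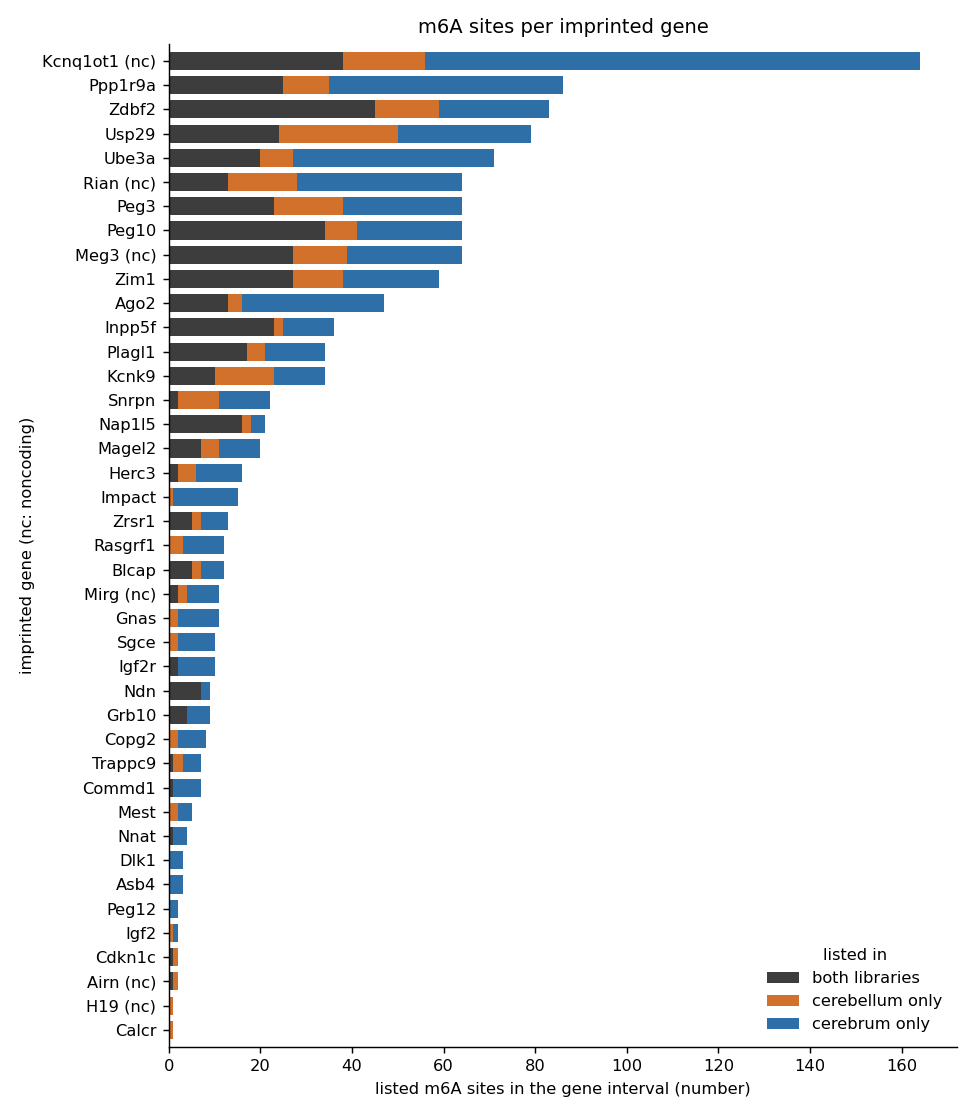
Number of listed m6A sites (horizontal axis) in each of the 41 imprinted genes with a site (vertical axis; nc marks noncoding genes), split into sites listed in both libraries, in the cerebellum only and in the cerebrum only. Kcnq1ot1 holds 164 different sites, of which 38 are in both libraries, followed by Ppp1r9a with 86 and Zdbf2 with 83.

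Sites were unevenly spread over the genes. The noncoding genes held 306 different sites, 164 of them on Kcnq1ot1, and 12 coding genes held 679 of the 881 different sites of coding genes (77.1%). The other 28 coding genes held between 0 and 18 sites in the cerebellum (median 2) and between 0 and 19 in the cerebrum (median 5.50).

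Meg3, a maternally expressed long noncoding RNA that opens the noncoding stretch of the Dlk1-Dio3 cluster (chr12:109541001-109571726, plus strand), held 39 sites in the cerebellum, 52 in the cerebrum and 27 in both. Of its 64 different sites, 58 were exonic, and 50 of these lay in the last exon of its longest transcript, exon 5 of 5, which is 13087 nt long. The densest stretch of 200 nt, at the start of that exon (chr12:109558686-109558885), held 9 sites, 7 of them in both libraries and 7 in DRACH. Of the 343 DRACH adenosines in the exons of Meg3, 8.16% (5.71 to 11.5) were listed in the cerebellum and 10.5% (7.68 to 14.2) in the cerebrum. Meg3 was thereby 28th of 215 noncoding genes with such a site in the cerebellum and 58th of 421 in the cerebrum. The first 3 sites in transcript order that were exonic, in DRACH and in both libraries are printed with 10 nt on either side, on GRCm38, with the 5-mer around the listed A in capitals, because this exon start is where the shared sites of the RNA are densest.
Meg3 site 1 (chr12:109558693-109558713, plus strand, exon 5): aggccgagAGACCagcttctc
Meg3 site 2 (chr12:109558726-109558746, plus strand, exon 5): agcctccaTGACCtgagctca
Meg3 site 3 (chr12:109558826-109558846, plus strand, exon 5): attgtttaGGACTgagacact

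Rian (chr12:109603940-109661716, plus strand), the maternally expressed host of a large group of small nucleolar RNAs downstream of Meg3, held 28 sites in the cerebellum, 49 in the cerebrum and 13 in both. Of its 64 different sites, 36 were exonic and 28 intronic. Exonic and intronic sites differed in motif and in overlap: 13 of the 36 exonic sites were in DRACH and 12 were in both libraries, whereas among the 28 intronic sites 1 was in DRACH and 1 was in both. The last exon of the isoform with 11 exons, 971 nt long, held 10 of the exonic sites, with 9 listed in both libraries. Of 370 exonic DRACH adenosines, 2.97% (1.67 to 5.24) were listed in the cerebellum and 3.24% (1.86 to 5.58) in the cerebrum. The third sequence comes from that last exon, and the other two from isoforms of 1 and 2 exons upstream.
Rian site 1 (chr12:109636040-109636060, plus strand): ctgaccgaGGACAgtgattaa
Rian site 2 (chr12:109646618-109646638, plus strand): aactaaatGGACAaatatcaa
Rian site 3 (chr12:109660828-109660848, plus strand, exon 11): acacaagaGGACTgctgagct

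Mirg (chr12:109729764-109749460, plus strand), a maternally expressed host of microRNAs at the far end of the cluster, held 4 sites in the cerebellum, 9 in the cerebrum and 2 in both. The shared exonic site lay in exon 4 of 12 and the other shared site in an intron.
Mirg site (chr12:109734224-109734244, plus strand, exon 4): ctcaaagaAGACTttccagag

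The intronic site of Mirg that both libraries listed falls inside the hairpin of Mir382 (chr12:109733771-109733846), at base 59 of the hairpin and base 11 of mature miR-382-3p. Of the 25 microRNA hairpins of RefSeq (GRCm38.p6) that lie inside the 47 genes, 14 of them in Mirg, this was the only one with a site. Other microRNA genes of the cluster lie outside the 47 intervals. On the same strand from Meg3 to Mirg, Mir379 and Mir493 held 1 site each in the cerebrum, that of Mir379 in DRACH. Mir494 held 1 in the cerebellum. The mature sequence is printed with its seed (bases 2 to 8) in capitals, and again with the DRACH 5-mer around the site in capitals. The 5-mer starts right after the seed. The libraries came from poly(A)+ RNA, and the list does not tell which transcript carried this adenosine.
miR-382-3p, seed in capitals (chr12:109733819-109733840, plus strand): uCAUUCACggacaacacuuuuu
miR-382-3p, 5-mer around the site in capitals: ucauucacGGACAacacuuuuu

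Kcnq1ot1 (chr7:143203458-143296549, minus strand), the paternally expressed antisense RNA of the Kcnq1 cluster and a repressor of neighbouring genes in cis, held 56 sites in the cerebellum, 146 in the cerebrum and 38 in both. It is annotated as a single exon of 93092 nt, so that all its sites count as exonic. Its 1.69% of DRACH adenosines listed in the cerebellum (1.24 to 2.29, of 2372) and 3.04% in the cerebrum (2.42 to 3.81) placed it 154th of 215 and 216th of 421 noncoding genes. The sites were concentrated in part of the RNA. Between 36 and 38 kb from the annotated start, 11 sites were listed in the cerebellum, 16 in the cerebrum and 8 in both. Between 70 and 80 kb there were 21 and 30, with 18 in both. From 80 kb to the annotated end at 93.1 kb, the cerebellum had 1 site and the cerebrum 1 site. Sites outside the dense stretches were mostly in the cerebrum only and mostly not in DRACH, with a DRACH share that varied along the RNA. Between 10 and 20 kb, none of the 13 different sites was in DRACH and none was in both. In DRACH were 6 of 15 between 0 and 10 kb, 7 of 20 between 20 and 30 kb and 13 of 20 between 60 and 70 kb. Between 70 and 80 kb, 26 of 33 were in DRACH. The first 3 shared DRACH sites in transcript order lie before the dense stretches.
Kcnq1ot1 site 1 (chr7:143293306-143293326, minus strand): tttaagatGGACTatatttat
Kcnq1ot1 site 2 (chr7:143293087-143293107, minus strand): gtttctttGGACTtttctttg
Kcnq1ot1 site 3 (chr7:143273510-143273530, minus strand): ggcaacacAGACTgcacgttt

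**Figure D2:**
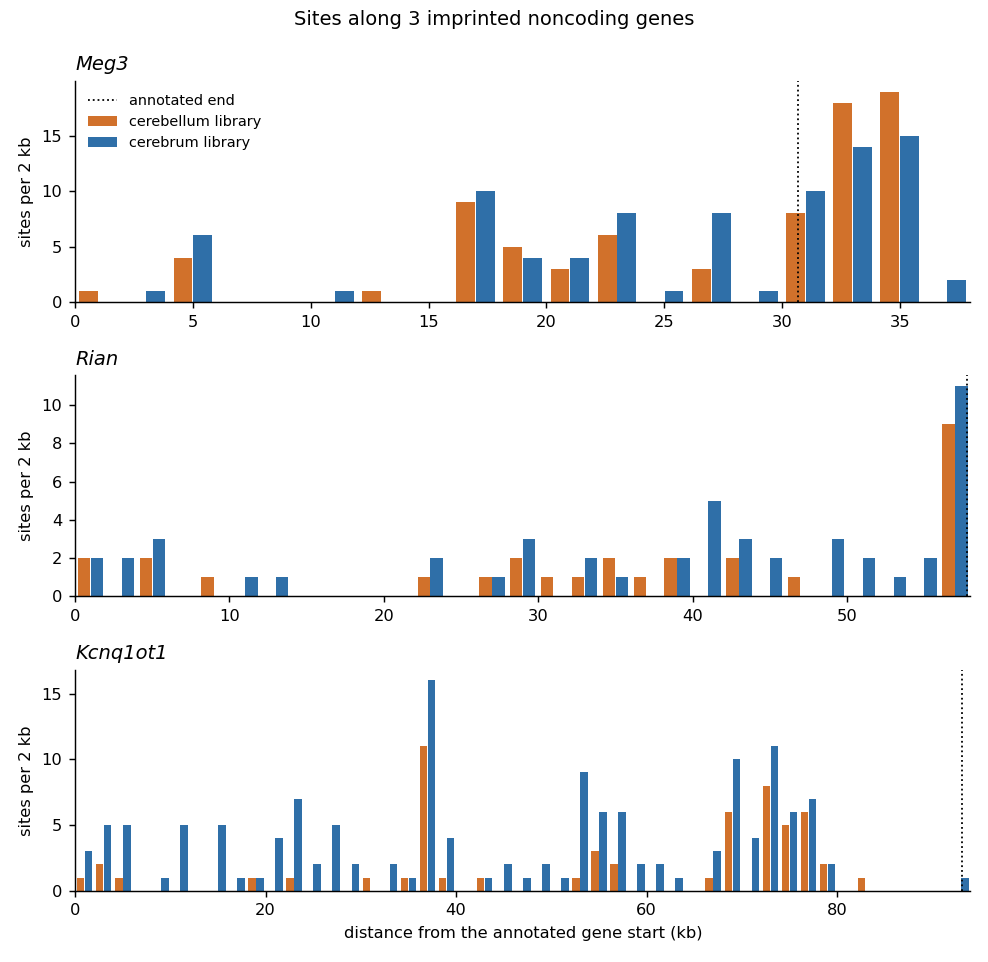
Number of sites per 2 kb (vertical axes) against the distance from the annotated gene start in kb (horizontal axes) for Meg3, Rian and Kcnq1ot1, with the cerebellum and the cerebrum library side by side and a dotted line at the annotated end. Sites of Rian pile up in its last bin, from 56 kb on (9 and 11 sites), those of Kcnq1ot1 in the bin from 36 to 38 kb (11 and 16) and from 70 to 80 kb, and those on the Meg3 strand go on past the annotated end.

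The other 3 noncoding genes had few sites or none. Airn, the paternally expressed RNA that overlaps Igf2r in antisense, held 2 sites and 1 site. The site in both lay in exon 2 of 2. H19, a maternally expressed RNA abundant in the embryo, held 1 site in the cerebellum, not in DRACH, and 0 in the cerebrum, and Peg13 held 0 in both.
Airn site (chr17:12815322-12815342, plus strand, exon 2): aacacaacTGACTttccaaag

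Peg3, a paternally expressed zinc finger gene, held 38 sites in the cerebellum, 49 in the cerebrum and 23 in both. Its different sites were spread over the coding sequence (32) and the 3′ UTR (23), with 8 and 14 in both libraries. Usp29, a paternally expressed gene for a ubiquitin-specific protease that is transcribed divergently from Peg3, held 50 and 53 sites, 24 of them in both. On Usp29 the coding sequence held more sites than any other region: 28 in the cerebellum, 21 in the cerebrum and 18 in both, beside 2 in both in its 3′ UTR. Its introns held 9 and 15 sites with 1 in both. Zim1, a maternally expressed zinc finger gene, held 38 and 48 sites with 27 in both, and showed the opposite distribution: 25 of the shared sites lay in its 3′ UTR and 0 in its coding sequence. The shared DRACH site of Zim1 nearest to the stop codon was at 4 nt, counted from the last base of that codon, that of Peg3 at 54 nt and that of Usp29 at -117 nt, inside the coding sequence. The densest 200 nt of Peg3 (chr7:6707163-6707362), in its 3′ UTR, held 9 sites, 7 of them in both libraries and 8 in DRACH. For each of the main coding genes, this nearest site is printed, since the stop codon is where m6A is commonly looked for.
Peg3 site (chr7:6707442-6707462, minus strand, 3′ UTR): ccagaaccAGACCcttaataa
Usp29 site (chr7:6963642-6963662, plus strand, coding sequence): tttttgagGAACTgttgaaaa
Zim1 site (chr7:6676909-6676929, minus strand, 3′ UTR): tgtataaaAGACCtttaaaag

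Peg10, a paternally expressed gene derived from a retrotransposon that the placenta needs, held 41 sites in the cerebellum, 57 in the cerebrum and 34 in both. Relative to its longest isoform, 8 of the 64 different sites were in the coding sequence and 56 in the 3′ UTR. Peg10 RNA has an overlapping second reading frame that is reached by ribosomal frameshifting, and an isoform is annotated with that longer frame (1005 codons instead of 376). On it, 29 of the 64 sites were coding and 35 in the 3′ UTR. The printed site was 163 nt past the stop codon of the shorter frame and inside the longer one. Peg10 also held a stretch of 200 nt (chr6:4756117-4756316) with 7 sites, 0 of them in both libraries and 0 in DRACH. Rtl1, the other gene here derived from a retrotransposon, held 0 sites in both libraries.
Peg10 site (chr6:4755504-4755524, plus strand): attgatcaAGACTttgtcata

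Nap1l5, a paternally expressed retrogene of the nucleosome assembly protein family within an intron of Herc3, held 18 and 19 sites, 16 of them in both, on a single exon of 1844 nt. This was 9.76 exonic sites per kb in the cerebellum and 10.3 per kb in the cerebrum. Zrsr1, a retrogene in an intron of Commd1 and related to a splicing factor, held 7 and 11 sites with 5 in both. Of its 13 different sites, 8 lay in a stretch of 200 nt of its 3′ UTR (chr11:22974540-22974739), all 8 in DRACH and 4 in both. Ndn and Magel2, paternally expressed genes of the MAGE family that are lost in Prader-Willi syndrome, held 7 and 9 sites (7 in both) and 11 and 16 sites (7 in both). For both, all sites lay on the single exon: 4 in the coding sequence and 5 in the 3′ UTR of Ndn, and 17, 2 and 1 in the coding sequence, 3′ UTR and 5′ UTR of Magel2. Of the same cluster, Peg12 held 2 sites in the cerebrum only, and Mkrn3 held 0.

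Ube3a encodes a ubiquitin ligase that is maternally expressed in neurons and is lost in Angelman syndrome. It held 27 sites in the cerebellum, 64 in the cerebrum and 20 in both, and 18 of these 20 lay in the coding sequence. A single internal exon, exon 6 of 13 with 1247 nt, held 21 different sites, 17 in both libraries. Its densest 200 nt (chr7:59276690-59276889) held 10 sites, 9 of them in both and 8 in DRACH. The intronic sites of Ube3a numbered 2 and 16 and none was in both. Snrpn, a paternally expressed gene for a spliceosomal protein, held 11 and 13 sites, of which 10 and 12 were intronic and 2 were in both. Of the 22 different sites of Snrpn, 1 was in DRACH, and 10 also lay under another gene annotated on the same strand.
Ube3a site, 149 nt past the stop codon (chr7:59305069-59305089, plus strand, 3′ UTR): ttcattggGGACAttgtgggc

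Zdbf2, a paternally expressed gene that carries a zinc finger domain, held 59 and 69 sites with 45 in both. Its coding sequence spans much of an exon of 11937 nt, and 43 of the 45 shared sites lay in it. Zdbf2 held the largest number of shared sites of the 47 genes. Inpp5f, a phosphoinositide phosphatase with a paternally expressed short isoform in brain, held 25 and 34 sites. Of its 25 sites in the cerebellum, 23 were in the cerebrum as well, and 24 lay in its last exon (exon 20 of 20, 2250 nt), which held 28 of its 34 different exonic sites and, in a stretch of 200 nt of coding sequence (chr7:128694297-128694496), 9 sites with 7 in both. Plagl1, a paternally expressed zinc finger gene known as a regulator of growth, held 21 and 30 sites with 17 in both. All 17 shared sites were in DRACH and in the 3′ UTR.
Zdbf2 site, 65 nt past the stop codon (chr1:63310000-63310020, plus strand, 3′ UTR): cacatttgAGACTtgaatgca
Inpp5f site, at -48 nt from the end of the stop codon (chr7:128695267-128695287, plus strand, coding sequence): aacaaaatGAACTtaaaaata
Plagl1 site, 218 nt past the stop codon (chr10:13129312-13129332, plus strand, 3′ UTR): ctgtaatcAAACTgcaaatat

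Ppp1r9a, which encodes the actin-binding scaffold neurabin, held 35 sites in the cerebellum, 76 in the cerebrum and 25 in both. Of the shared sites, 17 lay in its 3′ UTR, 3 in its coding sequence and 4 in its 5′ UTR, and 20 further different sites were intronic, none of them in both. Ago2, an Argonaute protein at the core of the RNA-induced silencing complex, held 16 and 44 sites with 13 in both. Kcnk9, a maternally expressed potassium channel gene, held 23 and 21 with 10 in both. The 3′ UTRs of Ago2 and Kcnk9 are long, ending 11064 and 11030 nt after the stop codon, and held 11 and 8 of their shared sites. The densest 200 nt of Kcnk9 (chr15:72510317-72510516), in its 3′ UTR, held 9 sites, 6 of them in both libraries. The shared DRACH site of Ago2 nearest to the stop codon was the adenosine that ends the TGA stop codon itself.
Ppp1r9a site, 129 nt past the stop codon (chr6:5159871-5159891, plus strand, 3′ UTR): cggttaaaGAACTgtgtgttg
Ago2 site, last base of the stop codon (chr15:73106898-73106918, minus strand): actttgctTGACCtgttgtat
Kcnk9 site, at -617 nt from the end of the stop codon (chr15:72512726-72512746, minus strand, coding sequence): cataacatTGACTactatagg

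**Figure D3:**
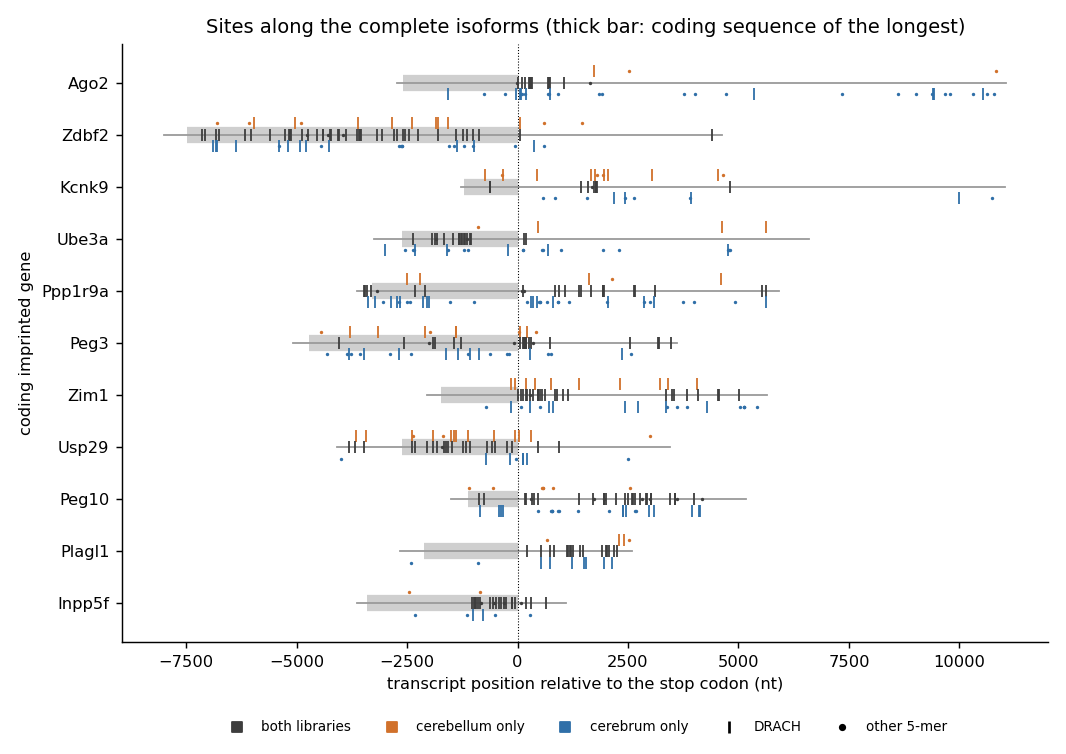
Positions of sites relative to the last base of the stop codon in nt (horizontal axis) for 11 coding genes (vertical axis), each measured on the longest complete isoform that covers the site. Ticks are DRACH sites and dots other 5-mers, drawn on the line for both libraries, above it for the cerebellum only and below it for the cerebrum only, and the thick bar is the coding sequence of the longest complete isoform. Shared sites of Zdbf2 and Ube3a lie mostly in the coding sequence (43 of 45 and 18 of 20), those of Zim1 and Plagl1 downstream of the stop codon.

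Coding genes outside the 12 with the most sites are given by their values in the cerebellum and the cerebrum. Igf2, a paternally expressed growth factor, held 1 site in each library, not the same, and both positions also lay under another annotated gene. Igf2r, the receptor that clears this factor, held 2 and 10 sites. Grb10, an adaptor that dampens insulin signalling, held 4 and 9, with all 4 of the cerebellum also in the cerebrum. Cdkn1c, an inhibitor of cyclin-dependent kinases, held 2 and 1, and Dlk1, a membrane protein of the Notch ligand type, 0 and 3. Of these 5 genes, Igf2r and Grb10 had more than 1 shared site. Gnas, a complex locus for the stimulatory G protein subunit, held 2 and 9 with 0 in both. Nnat and Blcap, which overlap on opposite strands, held 1 and 4 sites (1 in both) and 7 and 10 (5 in both). Among genes with roles in vesicle traffic and protein turnover, Trappc9, a subunit of a vesicle-tethering complex, held 3 and 5 sites and Copg2, a coat protein of Golgi vesicles, 2 and 6. Herc3, of a family of ubiquitin ligases, held 6 and 12, and Asb4, a substrate receptor of such ligases, 0 and 3. Sgce, the sarcoglycan mutated in myoclonus dystonia, held 2 and 8, Rasgrf1, an exchange factor for Ras, 3 and 9, and the calcitonin receptor gene Calcr 1 and 0. Mest, a paternally expressed gene of the hydrolase fold, held 2 and 3, Impact, a regulator of translation, 1 and 14, and Commd1, which acts in copper handling, 1 and 7. All 7 different sites of Commd1 also lay under another gene on the same strand.

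In 12 of the 41 genes with sites, none was shared between the libraries: Dlk1, Peg12, Igf2, H19, Gnas, Mest, Copg2, Sgce, Calcr, Asb4, Rasgrf1 and Impact. This was 29.3% (17.6 to 44.5), and among all 14244 coding and noncoding genes with a site the share was 44.5%. The 6 genes without a site in either library were Rtl1, Dio3, Mkrn3, Phlda2, Ddc and Peg13, with between 17 and 132 exonic DRACH adenosines each. Whether these genes were unmethylated or too thinly covered cannot be told apart from the lists.

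To compare genes of different length, the DRACH adenosines in the merged exons of each gene were counted, and the share of them that was listed was taken. Among the 27 coding imprinted genes with an exonic DRACH site in the cerebellum, the median share was 5.71% (quartiles 1.32 and 12.3), beside 3.33% (1.59 and 6.71) for 7508 other coding genes. In the cerebrum it was 7.61% (2.12 and 11.6) for 28 genes, beside 4.88% (2.33 and 9.78) for 9681 others. The medians and upper quartiles of the imprinted genes were thus higher, and their lower quartiles were lower. Noncoding imprinted genes had medians of 2.25% and 3.04% (5 genes in each library), beside 2.72% and 3.18% for other noncoding genes.

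The highest shares were those of Nap1l5 and Peg10. In Nap1l5, 15 of 45 DRACH adenosines were listed in each library (33.3%, 21.4 to 47.9), which placed it 31st of 7535 coding genes in the cerebellum and 128th of 9709 in the cerebrum. In Peg10 the share was 23.3% (16.5 to 31.7) in the cerebellum and 33.6% (25.7 to 42.6) in the cerebrum, 134th and 119th. Zim1 followed with 18.5% (13.5 to 24.7) and 17.4% (12.6 to 23.5), and Zdbf2 with 17.3% (13.4 to 22) and 18.3% (14.3 to 23.1). Within the coding genes with at least 1 exonic DRACH site in a library, the lowest shares were 0.699% for Trappc9 in the cerebellum and 0.398% for Rasgrf1 in the cerebrum. The intervals of Nap1l5, Peg10, Zim1 and Zdbf2 overlapped in the cerebellum, and the order of these 4 was not tested.

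**Figure D4:**
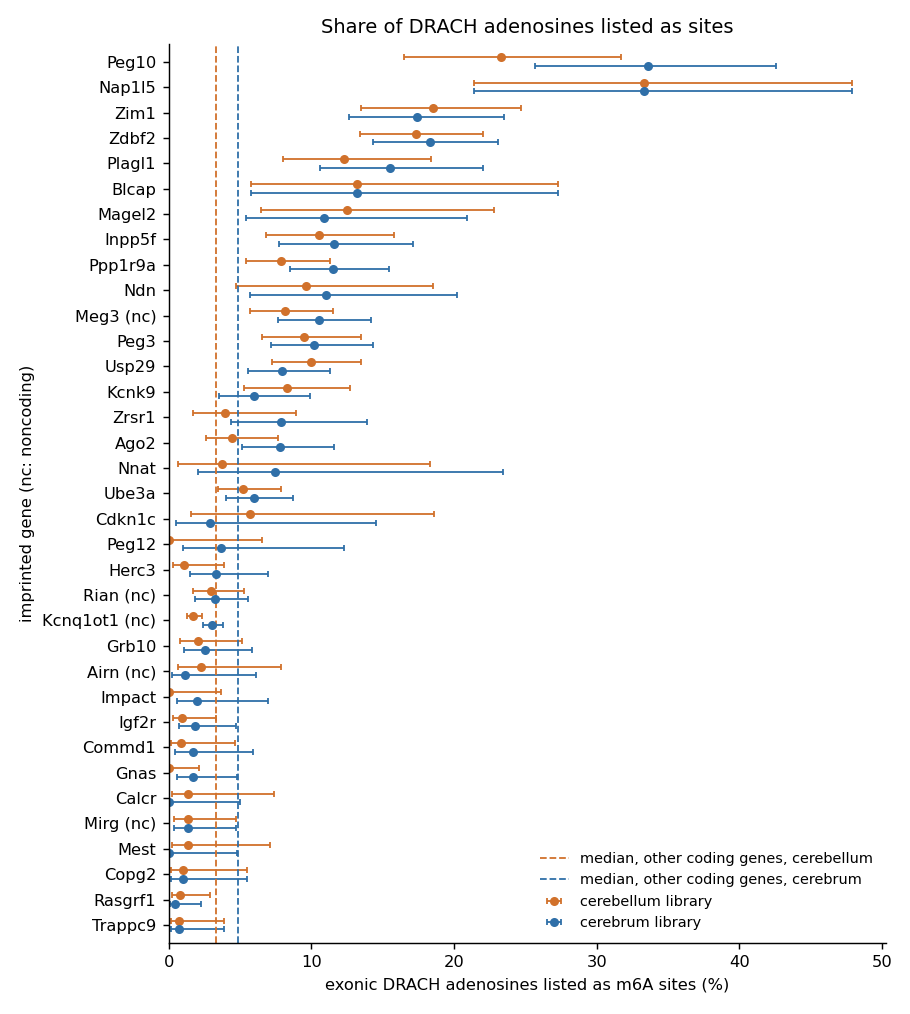
Share of exonic DRACH adenosines listed as sites in % (horizontal axis, points) with its 95% Wilson interval (bars) for each imprinted gene with at least 1 exonic DRACH site (vertical axis; nc marks noncoding genes), by library. Dashed lines mark the medians of other coding genes, 3.33% in the cerebellum and 4.88% in the cerebrum, and Peg10 and Nap1l5 stand farthest to the right.

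The share of sites in DRACH was 76.2% (72.2 to 79.9) on coding imprinted genes in the cerebellum and 55.7% (52.1 to 59.3) in the cerebrum. On all other coding genes it was 63.1% and 47.5%. The gap was smaller within exons, with 80.8% (76.8 to 84.3) and 61.6% (57.7 to 65.2), beside 73.6% and 59.8% on other coding genes. In the cerebrum, the exonic interval thus held the value of other coding genes. Sites in introns made up 8.35% and 11.5% of the sites of coding imprinted genes, and 17.9% and 26.2% of those of other coding genes. On noncoding imprinted genes the DRACH share was 64.6% (56.1 to 72.3) in the cerebellum and 49.4% (43.4 to 55.5) in the cerebrum, beside 53.0% and 39.0% on other noncoding genes. In the cerebellum, the interval of the noncoding genes only just met that of the coding genes. With RRACH, which leaves out T as the first base, the shares in the cerebellum were 59.1% (54.6 to 63.5) on coding and 58.5% (49.9 to 66.6) on noncoding imprinted genes, so that this difference was not kept. Within exons, DRACH shares on noncoding imprinted genes were 72.8% (64.0 to 80.1) and 52.1% (45.8 to 58.4), beside 62.8% and 43.8% on other noncoding genes. Exons held 87.7% and 91.8% of the sites of noncoding imprinted genes, and 57.8% and 59.0% of those of other noncoding genes. Without Kcnq1ot1, the noncoding DRACH shares were 59.5% (48.1 to 69.9) and 49.5% (40.4 to 58.7). The first interval held the 53.0% of other noncoding genes.

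Sites listed in both libraries were mostly in DRACH, on coding (87.9%, 83.9 to 91.1) and noncoding (85.2%, 75.9 to 91.3) imprinted genes. On other coding genes the share was 84.0%, within the interval of the coding imprinted genes. On other noncoding genes, 784 of the 1045 shared sites were in DRACH, a share just below the interval of the noncoding imprinted genes. Sites of the cerebrum only were in DRACH for 31.2% (26.9 to 35.8) on coding and 33.0% (26.4 to 40.2) on noncoding imprinted genes, beside 34.7% on other coding genes. Sites of the cerebellum only were in DRACH for 52.0% (44.1 to 59.8) on coding and 30.6% (19.5 to 44.5) on noncoding imprinted genes, beside 30.1% and 27.3% on other coding and noncoding genes. Within exons of coding imprinted genes, the share was 36.4% (31.4 to 41.7) for sites of the cerebrum only, below the 46.8% of other coding genes. For sites of the cerebellum only it was 60.2% (51.2 to 68.5), above their 43.6%. The leading 5-mers among the 396 shared sites were AGACT (56 sites, 14.1%), GGACT (47, 11.9%), GAACT (44, 11.1%) and GGACA (37, 9.34%). On coding genes, the first 5-mer outside DRACH was GTACT, with 7 of 315 shared sites.

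**Figure D5:**
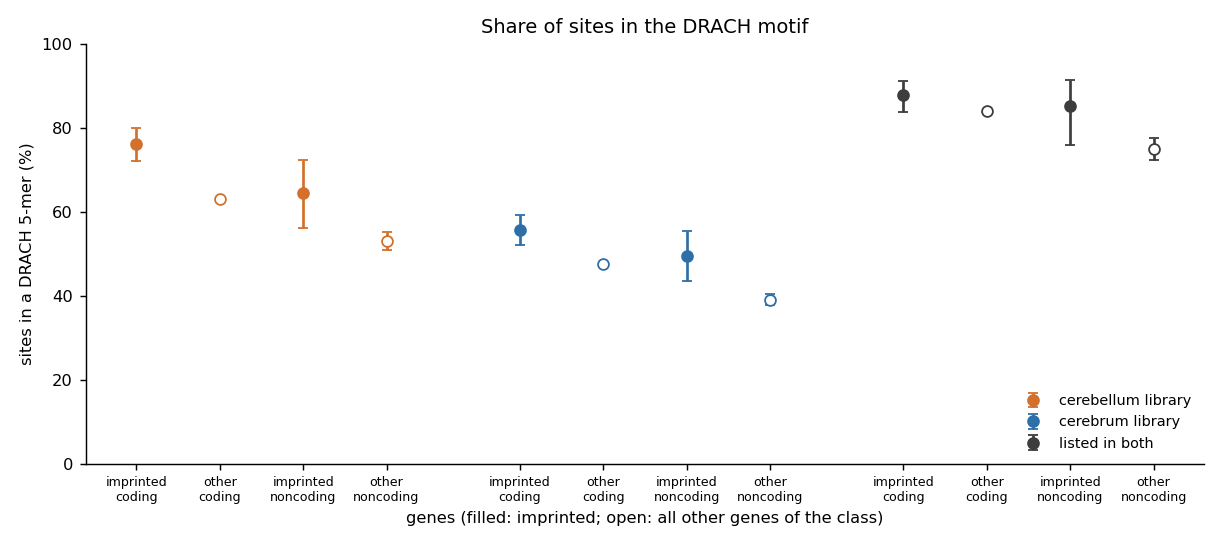
Share of sites in a DRACH 5-mer in % (vertical axis) with 95% Wilson intervals for imprinted genes (filled points) and all other genes of the class (open points), for the cerebellum library, the cerebrum library and the sites listed in both. Shares are 76.2% and 55.7% on coding imprinted genes in the cerebellum and the cerebrum and 87.9% among their shared sites.

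At 3 positions in the imprinted genes, GRCm38 holds no A on the strand of the site. They lie in Mirg (cerebellum), Kcnq1ot1 (cerebrum) and Sgce (cerebellum), and each was listed in only that library. At all 3 the reference base was G. As reads were mapped also to a copy of mm10 with the PWK bases, such a position can carry an A on the paternal allele, but the lists do not show the allele. The reference sequence around each is printed with its 5-mer in capitals, and none of these 5-mers would be DRACH with an A at the centre.
Mirg (chr12:109729849-109729869, plus strand): acgttatcGAGAGaggtaatg
Kcnq1ot1 (chr7:143275572-143275592, minus strand): gtgtgctgTCGGActcctgat
Sgce (chr6:4709663-4709683, minus strand): ctggagggTCGCAcacactag

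On the longest complete isoform that covers each site, 3′ UTRs held 55.5% (50.7 to 60.2) of the sites of coding imprinted genes in the cerebellum and 56.8% (52.8 to 60.6) in the cerebrum. The coding sequence held 41.3% and 40.0% and the 5′ UTR 3.12% and 3.26%. These shares were near those of other coding genes, of which 56.2% and 53.8% lay in 3′ UTRs. For DRACH sites alone, 3′ UTRs held 55.5% and 56.6%, beside 57.3% and 55.7% on other coding genes. DRACH adenosines, listed or not, were counted on the longest complete isoform of the 30 imprinted genes with a DRACH site on such an isoform. Of these, 54.8% lay in 3′ UTRs, 38.9% in coding sequence and 6.37% in 5′ UTRs. For other coding genes the shares were 47.6%, 47.4% and 4.93%.

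Sites within 200 nt of the stop codon made up 13.2% (10.3 to 16.8) in the cerebellum and 13.5% (11.1 to 16.5) in the cerebrum, beside 20.4% and 19% on other coding genes. For DRACH sites alone, the share in the cerebrum was 14.5% (11.3 to 18.3), beside 22.1% on other coding genes. In the cerebellum it was 13.4% (10.2 to 17.4), likewise below that of other coding genes. Of the DRACH adenosines of the imprinted transcripts, listed or not, 7.05% lay within 200 nt of the stop codon, beside 10.1% in other coding genes with a DRACH site. How far this difference in adenosines set the lower shares of sites was not tested. For splice junctions, the 35 and 42 DRACH sites on transcripts of a single exon were left out. Of the remaining 309 and 352 DRACH sites, those within 100 nt of a junction made up 1.94% (0.893 to 4.17) in the cerebellum and 3.69% (2.17 to 6.22) in the cerebrum. Of 3154 DRACH adenosines on the longest complete isoforms, 24.4% lay that close to a junction. On other coding genes the corresponding shares were 7.20% and 8.61% of sites and 36.2% of adenosines. Both groups thus had a smaller share of sites than of DRACH adenosines near junctions.

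Of the cerebellum sites of imprinted genes, 66.3% (62.4 to 70.0) were also listed in the cerebrum, beside 61.1% of those of other genes. Within exons this difference was gone, with 71.8% for imprinted and 71.8% for other genes. In the reverse direction, 40.2% (37.1 to 43.3) of the cerebrum sites were listed in the cerebellum, beside 25.7% for other genes, and within exons 44.2% (40.9 to 47.5) beside 33.6%. DRACH sites recurred more often than others: 78.6% (74.6 to 82.2) of the DRACH sites of the cerebellum and 31.8% (25.1 to 39.5) of its other sites were found in the cerebrum, beside 81.4% and 26.7% for other genes.

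The cerebrum listed more sites than the cerebellum for 35 of the 41 genes, the cerebellum more for 5 (Cdkn1c, H19, Airn, Kcnk9 and Calcr) and both as many for Igf2. The 35 genes were 85.4% (71.6 to 93.1), near the 90.5% of all 14244 coding and noncoding genes with a site that had more in the cerebrum, whose list is longer. Counting exonic DRACH sites only, 14 coding imprinted genes had at least 10 different sites, and 5 of them (35.7%, 16.3 to 61.2) had at least as many in the cerebellum as in the cerebrum. Over all 2928 coding genes with that many sites, the share was 7.55%. The 5 genes were Usp29 with 35 in the cerebellum against 28 in the cerebrum, Zim1 with 34 and 32, Kcnk9 with 18 and 13, Nap1l5 with 15 and 15 and Magel2 with 8 and 7. This count was not among the planned comparisons. As Usp29 and Zim1 lie in the same cluster, the genes are not independent, which the interval does not cover. The other 9 had more in the cerebrum, such as Inpp5f with 19 and 21 and Ppp1r9a with 26 and 38. Depth and expression differ between libraries in ways the lists do not show, and their part in these counts was not tested.

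Genes were also grouped by the allele that is known to be expressed, with 14 genes set apart because the allele differs between tissues or isoforms. The 10 maternally expressed genes held 137 and 189 sites, the 23 paternally expressed genes 328 and 508. Of their cerebellum sites, 58.4% (50.0 to 66.3) and 67.1% (61.8 to 71.9) were also in the cerebrum, with overlapping intervals. DRACH shares in the cerebellum were 73.0% (65.0 to 79.7) and 73.2% (68.1 to 77.7), and in the cerebrum 55.0% (47.9 to 61.9) and 57.9% (53.5 to 62.1). The intervals overlapped in each of these measures, and which parental copy carried the methylated RNA was not measured. The groups also differ in their mix of coding and noncoding genes. Meg3 and Rian held 64 each of the 246 different sites of the maternal group, and Kcnq1ot1 held 164 of the 616 of the paternal group. Allele and class were not separated here.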

How the data were processed

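Poly(A)+ RNA from 2 brain regions (cerebellum, cerebrum) of 1 female F1r animal at P0 was treated by GLORI, 1 library each. The authors mapped reads to mm10 and to mm10 carrying PWK bases, called sites with GLORI-tools v.1.0, united both sets per library and left out positions at or under a rate of 0.1 or at or under 8 reads. The deposited files hold genomic positions of 1 nt with their strand, no other values, so depth is unknown, and both cut-offs shape which sites are listed. The deamination step was run warmer than in the original protocol, per the methods.

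Positions were read as deposited, and the GRCm38 base was A at 79146 of 79355 cerebellum and 187931 of 188295 cerebrum sites. Gene models were GENCODE M21, whereas the methods name v26. A site under several genes was counted for each imprinted gene it lies in. Regions were taken from the longest isoform covering the site that has a complete coding sequence and both UTRs. In merged exons, each A in the centre of DRACH was counted. Other genes are all coding or long noncoding genes outside the 47, without sites shared with them. MicroRNA sequences are those of RefSeq (GRCm38.p6).

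The 47 genes, the gene lists, the allele grouping (from general knowledge) and the alternatives were chosen with earlier results of these data known. All genes were accounted for: full values are given for the 7 noncoding genes and the 12 coding genes with the most different sites. Sequences are up to 3 shared exonic DRACH sites per noncoding gene, the shared DRACH site nearest to the stop codon for those 12 (Snrpn has none), and sites without A in GRCm38, none from chromosome 18. Shares have 95% Wilson intervals (scipy 1.17.1). Alternatives were exons only, sites under 1 gene only, matching within 1 nt, other motif, isoform and window settings, shared sites only, and leaving out the gene with the most sites. Python 3.11.15, pysam 0.24.0, samtools 1.23.1 and matplotlib 3.10.9 were used. On simulated data, the region was recovered at 100.0% of 6000 positions on coding transcripts and the 5-mer at all 5940 positions away from exon ends.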

Additional observations from a re-analysis of the deposited data

How the results depend on the processing

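Of 55 recomputed values, 36 stayed within the interval of the main value (for counts, within 1.5 times it), 19 left it and 0 reversed. With exons only, the share of cerebellum sites also in the cerebrum was 71.8%, as on other genes, and the DRACH share 80.8% (cerebellum) and 61.6% (cerebrum) on coding and 72.8% (cerebellum) on noncoding genes. With RRACH in place of DRACH, it was 59.1% (cerebellum) and 44.0% (cerebrum) on coding and 58.5% and 43.2% on noncoding genes. Among sites in both libraries, DRACH shares were 87.9% on coding and 85.2% on noncoding genes, and 97.5% of sites of noncoding genes were exonic. With all sites, 87.7% (cerebellum) and 91.8% (cerebrum) were exonic, and 78.4% and 81.1% without Kcnq1ot1, a single-exon gene. A window of 400 nt around the stop codon held 22.8% and 22.7% of sites, as it is wider. Pooled over coding genes, 7.62% and 8.39% of exonic DRACH adenosines were listed, and 10.3% and 11.5% on the longest transcript alone, which has fewer adenosines. The genes of variable allele stand apart already, so leaving them out changes neither allele group. No paired analysis was possible because there is 1 library per tissue.

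Neither methylation rates nor read counts are in the lists, so no level, no depth and no allele can be given for a site, and few sites do not tell low methylation from low expression. With 1 mouse and 1 library per tissue, differences between libraries cannot be told apart from differences in depth. Sites were placed with GENCODE M21, and another release can move a gene end.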

Other observations

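Beyond the annotated end of Meg3, sites went on along the same strand. In the 5 kb after that end, outside every gene of GENCODE M21, 38 sites were listed in the cerebellum, 31 in the cerebrum and 26 in both, and 42 of the 43 different sites were in DRACH. They lay between 0.664 and 5 kb after the end, and the window was chosen after these sites had been seen. Over the whole window, 28.2% (21.2 to 36.5) of 131 DRACH adenosines were listed in the cerebellum and 23.7% (17.2 to 31.6) in the cerebrum, beside 8.16% and 10.5% in the annotated exons of Meg3. Of 14244 coding and noncoding genes with a site, 5.53% had any such site in the 5 kb after their end, and 1 gene had more than the 43 of Meg3. RefSeq ends Meg3 within 3 bases of the same place. Among the other imprinted genes, Blcap had 6 such sites, Mest 5 and Rian 2, none of them in DRACH. The first 3 shared DRACH sites after the end of Meg3 are printed with the 5-mer in capitals. Counts in this stretch were higher in the cerebellum than in the cerebrum, whereas within the gene they were 39 and 52.
Meg3, 1.37 kb past the end (chr12:109573082-109573102, plus strand): caagaaaaTAACTcatctcca
Meg3, 1.53 kb past the end (chr12:109573249-109573269, plus strand): tctctgacAGACTctggacat
Meg3, 1.75 kb past the end (chr12:109573469-109573489, plus strand): ctctaagaGAACTcctatgtc

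Sites on the opposite strand of the imprinted genes were most frequent at Ube3a, which is silenced on the paternal allele in neurons by a long antisense RNA that runs on from Snrpn and Snhg14. There, 28 sites were listed in the cerebellum, 60 in the cerebrum and 3 in both. Of the 85 different sites, 9 were in DRACH, 42 lay under no gene of GENCODE M21, and 42 lay inside the longer Snhg14 interval of RefSeq, with 32 sites in both of these groups. The remaining 33 sites lay under GENCODE genes outside RefSeq Snhg14, and 27 of the 85 lay under 9330162G02Rik. In all, 41 of the 85 lay in an annotated exon. On the Ube3a strand, by comparison, 20 sites were in both libraries. The opposite strands of Herc3 and Commd1 held the 21 sites of Nap1l5 and the 13 of Zrsr1, and the opposite strand of Inpp5f held 8 sites under no annotated gene, 7 of them in DRACH and 1 in both.

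A list of 38 further genes reported as imprinted in the mouse was counted in the same way. Exonic sites were found in 18 of them in the cerebellum (150 sites) and in 21 in the cerebrum (278 sites). Of its 34 coding genes, 50.0% and 58.8% had an exonic site, beside 39.8% and 55.8% of all coding genes, so that the share in the cerebrum was near that of all genes. Snhg14 held 82 and 112 sites over its interval, of which 31 and 39 were exonic. Adam23, a membrane protein of neurons, held 30 and 52 exonic sites, Pde4d, a phosphodiesterase, 27 and 35, and Casd1, next to Sgce, 15 and 16. Kcnq1, whose cluster Kcnq1ot1 controls, held 0 in both libraries, as did Slc22a18, Ascl2 and Th.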
